A study of Mus musculus with 72 samples.

Results

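The interferon-stimulated genes were followed as a set of 33 genes, given by name, in RNA-seq counts from the epididymal fat pad (eWAT), the liver and the pituitary of 24 male mice. Each name matched 1 gene of the 55416 counted, so all 33 of 33 members were found, and all are protein coding. The mice were sighted FVB mice (FVB.129P2-Pde6b+ Tyrc-ch/AntJ), so every group shared this background. FED mice were the sons of dams that ate ad libitum, and CR20 mice the sons of dams that received 20% less food from embryonic day 15 until weaning. At 8 weeks of age the sons of both kinds of dam were given a control diet with 10% fat (CTRL) or a high fat diet with 45% fat (HFD). The labels and the methods of the study allow 10 or 16 weeks on the diet, and its account of the RNA-seq names the 10-week diet. The 4 groups FED-CTRL, FED-HFD, CR20-CTRL and CR20-HFD held 6 mice each, and 1 library was made from each tissue of each mouse, 72 in all. The 3 tissues of a mouse carry one animal number, and the dam or litter of a mouse is not given in the sources used here. The question of the design was whether food restriction of the dam changed the response of her sons to the HFD.

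Interferons are secreted proteins, and cells release those of type I when they sense viral or misplaced nucleic acid. Type I interferons bind a receptor that activates a transcription factor complex containing STAT2 and IRF9, which binds interferon-stimulated response elements (ISREs) in front of its target genes. Interferon gamma acts through a separate receptor and induces an overlapping set of genes, among them the guanylate-binding proteins. The members include the factors themselves (Stat2, Irf9, Irf7), sensors of foreign nucleic acid (Ifih1, Dhx58, Zbp1, Eif2ak2), the ubiquitin-like modifier Isg15 with its protease Usp18 and the ligase gene Herc6, the oligoadenylate synthetase family (Oas1a, Oas2, Oas3, Oasl1, Oasl2), and effectors such as Ifit1, Ifit2, Ifit3, Mx1, Mx2, Rsad2, Bst2 and Ifitm3. In adipose tissue and liver such genes are expressed both by parenchymal cells and by resident macrophages. In bulk tissue, fewer cells of a type and less RNA per cell cannot be told apart.

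The stretches around the transcription starts were searched for the core of this element. The core GAAANNGAAA, where N is any base, was searched on both strands from 250 bases before to 50 bases after the start of the canonical transcript in GRCm39, and overlapping matches were counted separately. It was found in 18 of the 33 members (54.5%) and in 829 of the 21627 protein-coding genes counted (3.83%). In Dhx58, Eif2ak2, Gbp2, Gbp7, Ifih1 and Oas1a the matches lay across or after the start, and in the other members with a match at least 1 lay wholly before it. Stretches of 60 bases before the start are shown, 5′ to 3′ on the strand of the gene, for 3 members whose levels went together between tissues (Ifit3, Rtp4 and Zbp1) and for the Isg15 modifier, its protease Usp18 and the surface protein gene Bst2. Complete matches are in capitals, and a match on the opposite strand appears as the reverse complement of the core.
Ifit3: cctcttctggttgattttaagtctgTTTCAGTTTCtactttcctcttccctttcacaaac
Rtp4: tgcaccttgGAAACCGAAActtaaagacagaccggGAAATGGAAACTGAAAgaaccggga
Zbp1: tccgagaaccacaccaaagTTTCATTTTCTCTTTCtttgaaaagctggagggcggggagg
Isg15: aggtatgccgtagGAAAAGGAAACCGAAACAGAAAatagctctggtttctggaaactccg
Usp18: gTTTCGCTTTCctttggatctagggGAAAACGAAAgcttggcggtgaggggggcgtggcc
Bst2: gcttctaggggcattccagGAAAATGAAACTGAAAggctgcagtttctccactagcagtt
These lie at chr19:34560782-34560841 (Ifit3, plus strand), chr16:23428586-23428645 (Rtp4, plus), chr2:173060727-173060786 (Zbp1, minus), chr4:156285307-156285366 (Isg15, minus), chr6:121222781-121222840 (Usp18, plus) and chr8:71990206-71990265 (Bst2, minus) of GRCm39. The start of the canonical Rtp4 transcript lies inside the annotated span of the gene, so its stretch is intragenic. The stretches of Rtp4 and Isg15 hold 3 matches each, those of Zbp1, Usp18 and Bst2 hold 2, and that of Ifit3 holds 1. The 15 members without a match in this window include Xaf1, Gbp3, Irf7 and Oasl1. The sequence is that of the reference strain, and the mice are of another strain. A match is a description of the letters and not a shown binding site.

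Total counts ranged from 9842813 to 27601208 per library (median 19705838.5), and 3 counts, taken as the smallest detectable number, correspond to 0.109 to 0.305 CPM, the count relative to a scaled library size, by counting error alone. Defining markers placed every library in its labelled tissue. Summed adipocyte markers were 10983 to 33484 CPM in eWAT and at most 39.7 CPM in liver and 160 CPM in pituitary, hepatocyte markers were at least 71709 CPM in liver, and pituitary hormone markers at least 249825 CPM in pituitary. In eWAT, 5 libraries carried markers of another organ. Hepatocyte markers summed to 770 CPM in FED-HFD mouse 10, 150 CPM in FED-HFD mouse 13 and 634 CPM in CR20-CTRL mouse 5, against at most 43.5 CPM in the 19 libraries without such markers. Epididymis and testis markers summed to 134 CPM in CR20-CTRL mouse 4, 63.1 CPM in CR20-CTRL mouse 5 and 33 CPM in CR20-HFD mouse 6, against at most 0.311 CPM in those 19. Macrophage markers summed to 11200 CPM in the eWAT of FED-HFD mouse 23 and to 2413 to 4250 CPM in the other 5 FED-HFD mice.

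The members were transcribed in all 3 tissues, at levels that spanned several orders of magnitude. Levels between genes are given as CPM per kb of exon, with one scaling over the 72 libraries. The antiviral membrane protein gene Ifitm3 had the highest median level in liver, at 435 CPM per kb (250 to 740 over 24 mice), and in pituitary, at 74 CPM per kb (46.7 to 108). In eWAT it ranked second at 96.3 CPM per kb (74 to 169), below the GTPase gene Gbp2 at 101 CPM per kb (40.9 to 390), and these ranges overlapped widely. Bst2, which encodes tetherin, stood at a median of 163 CPM per kb in liver, 47.2 in eWAT and 17.9 in pituitary. At the low end, Oas3 had medians of 0.198 CPM per kb in eWAT, 0.204 in liver and 0.176 in pituitary. The dynamin-like GTPase gene Mx1 had a median of 0.0589 CPM per kb in pituitary, where its counts ran from 0 to 26 and it did not pass the filter on low counts. It was the only member not tested in a tissue, so that 33 members were tested in eWAT, 33 in liver and 32 in pituitary. Many inbred mouse strains carry a defective Mx1 gene, and the allele of these mice is not given.

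**Figure D1:**
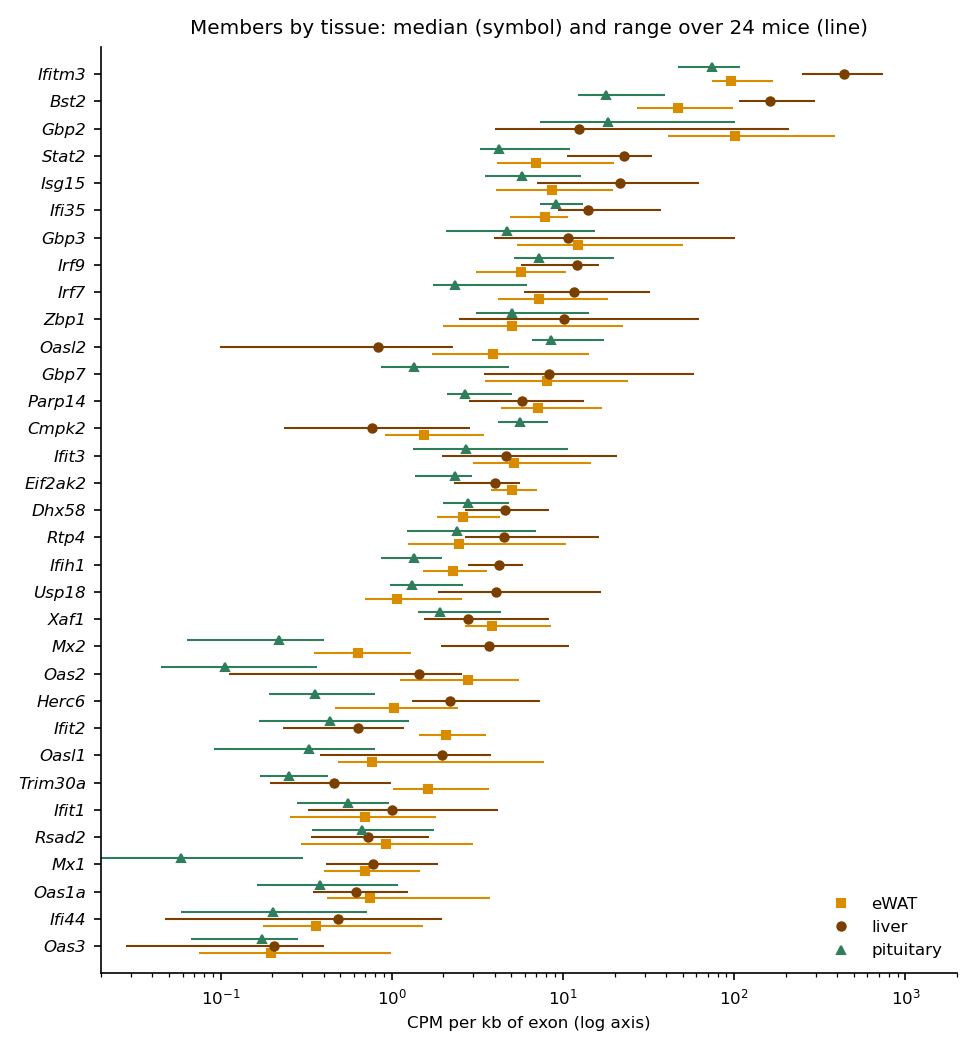
Level of each of the 33 members in CPM per kb of exon (log axis), with symbols for the median and lines for the range over 24 mice in eWAT (squares), liver (circles) and pituitary (triangles). Ifitm3 and Bst2 lie at the top with their highest medians in liver, and Cmpk2 and Oasl2 are highest in pituitary. The line of Mx1 in pituitary starts at 0, outside the axis.

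Between tissues, most members were lowest in pituitary. A gene was called when its quasi-likelihood p-value from edgeR, after adjustment, lay below 0.055 and its log2 fold change (log2FC) was 0.58 or more in size. In liver vs pituitary, 26 members were higher and 2 lower, and 35.1% and 41.4% of all 19210 genes tested were called in these directions (76.5% in either). In eWAT vs pituitary, 23 members were higher and 2 lower, against 35.6% and 34.7% of all genes (70.3% in either). In eWAT vs liver, 6 were higher in eWAT and 16 lower, against 38.7% and 27.4% of all genes (66.1% in either). The 4 members with the smallest p-values in liver vs pituitary were Ifitm3 (log2FC 2.61, standard error 0.0895, edgeR adjusted p = 2.73e-38), Bst2 (3.09), Mx2 (4.24) and the RNA sensor gene Ifih1 (1.60). The same 2 members were below the pituitary level in both other tissues. The mitochondrial nucleotide kinase gene Cmpk2 had a log2FC of -2.67 in liver vs pituitary (standard error 0.139, edgeR adjusted p = 4.44e-28) and of -1.84 in eWAT vs pituitary. The synthetase-like gene Oasl2 had a log2FC of -3.47 in liver vs pituitary and of -0.95 in eWAT vs pituitary. The synthetase gene Oas2 was nearly silent in pituitary at a median of 0.107 CPM per kb, against 2.78 in eWAT and 1.45 in liver. Its log2FC in eWAT vs pituitary was 4.41 (standard error 0.243, edgeR adjusted p = 1.53e-26). Gbp2 was 2.69 higher in eWAT than in liver on the log2 scale, and its order between liver and pituitary was not resolved (log2FC -0.23, standard error 0.257, edgeR adjusted p = 0.404). For Mx1, liver and eWAT were likewise not resolved (log2FC -0.13 in eWAT vs liver, standard error 0.183, edgeR adjusted p = 0.524). The liver RNA came from another extraction kit than the RNA of eWAT and pituitary, so that tissue and kit cannot be told apart in the differences between liver and another tissue.

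Over the 24 mice, most members rose and fell together from mouse to mouse within each tissue. Over the pairs of members, the median Pearson r of log2 CPM, centred on the group means, was 0.63 in eWAT (528 pairs), 0.58 in liver (528) and 0.54 in pituitary (496), against a median of about 0 over all pairs of tested genes. These pairs share 24 libraries and are given as a description. The libraries include those of FED-HFD mouse 40, the highest mouse in every tissue, and the pairs were not computed without it or any other mouse. Xaf1, an antagonist of apoptosis inhibitors, went most closely with the other members in eWAT (median r 0.80), the GTPase gene Gbp3 in liver (0.75) and Gbp2 in pituitary (0.77). Oasl1 stood apart in eWAT, where its median r with the other members was -0.15. Oas2 was the least coupled member in liver (median r 0.08) and Mx2 in pituitary (0.20).

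Some mice held the same place among the 24 in all tissues, and others did not. FED-HFD mouse 40 had the highest member level of all 24 mice in each of the 3 tissues, with a median deviation from the 24-mouse mean of 1.13 in eWAT, 1.24 in liver and 1.08 in pituitary on the log2 scale. It held the highest value of the 24 mice for 25 of 33 members in eWAT, 23 of 33 in liver and 28 of 32 in pituitary. FED-HFD mouse 11, on the same diet, ranked 23 of 24 in eWAT, 24 in liver and 22 in pituitary, with median deviations of -0.57, -0.73 and -0.34. CR20-HFD mouse 7 ranked 24, 22 and 23, and FED-CTRL mouse 14 ranked 20, 23 and 24. Other mice differed between tissues, since CR20-HFD mouse 32 ranked 4 in eWAT, 19 in liver and 16 in pituitary, CR20-CTRL mouse 33 ranked 3, 13 and 9, and FED-HFD mouse 12 ranked 21, 10 and 12. The FED-HFD group thus held both the highest mouse and one of the lowest, and its spread of median deviations was wider than that of the other groups in every tissue.

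**Figure D2:**
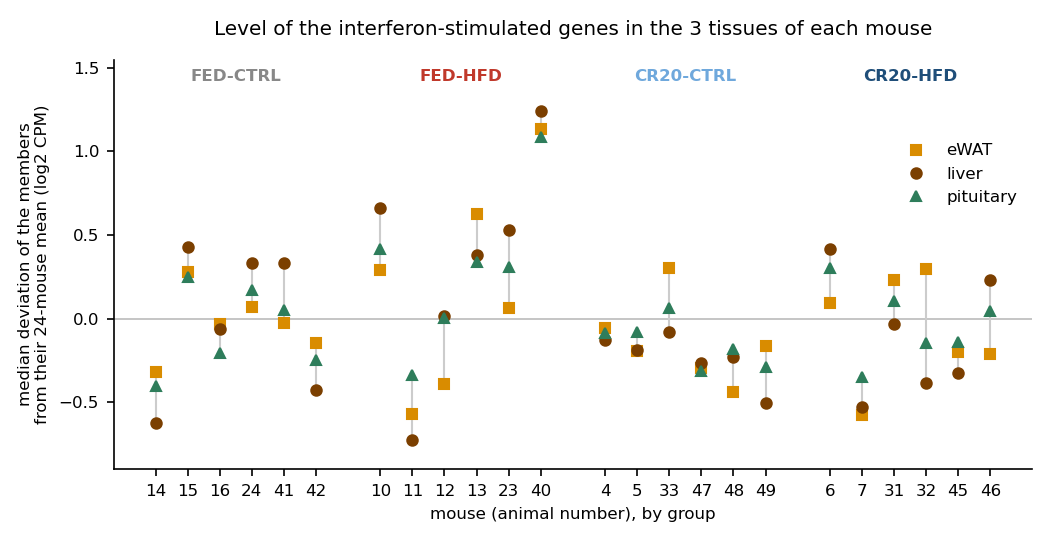
Median deviation of the members from their 24-mouse mean (log2 CPM) for each mouse, by group and animal number, with squares for eWAT, circles for liver and triangles for pituitary. Mouse 40 of FED-HFD lies above 1 in all 3 tissues, and mice 11, 7 and 14 lie below 0 in all 3.

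Whether levels went together between tissues was tested gene by gene as the Pearson r between 2 tissues of the same 24 mice, each centred on its group mean, with 100000 permutations of mice within groups and a two-sided p-value adjusted over all genes tested in both tissues. Between liver and pituitary, 9 of the 32 members passed an adjusted p-value of 0.055, all with a positive r, against 0.588% of the 12595 genes tested (74 genes). The median r was 0.54 over the members and 0.07 over all genes. For 5 members the permutation p-value was 1e-05, the smallest that 100000 permutations can give (adjusted p = 0.00434). They were Xaf1 (r = 0.935, Spearman's rho 0.858), Gbp2 (r = 0.922, rho 0.898), the chaperone-like gene Rtp4 (r = 0.904, rho 0.818), the translation inhibitor gene Ifit3 (r = 0.903, rho 0.881) and the Z-form nucleic acid sensor gene Zbp1 (r = 0.864, rho 0.857). The permutation p-value of rho was 1e-05 for Xaf1, Gbp2, Ifit3 and Zbp1 and 7e-05 for Rtp4. The other 4 were Gbp3 (r = 0.809), the ADP-ribosyltransferase gene Parp14 (r = 0.798), Ifitm3 (r = 0.762) and Irf7, the amplifying factor of the type I response (r = 0.747). Of the 9, 4 carry the motif GAAANNGAAA in the window searched above, against 18 of all 33 members. These 4 are Rtp4, Ifit3 and Zbp1, with matches before the start, and Gbp2, with a match after it.

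The values of Gbp2 show the size of this variation. In liver, Gbp2 ran from 10.8 to 57 CPM in FED-CTRL (median 29.4), from 9.43 to 399 in FED-HFD (81.1), from 7.66 to 25.5 in CR20-CTRL (12.8) and from 7.45 to 56.3 in CR20-HFD (22.4). In pituitary it ran from 21 to 83.6 CPM in FED-CTRL (54.9), from 29.5 to 288 in FED-HFD (91.6), from 31.2 to 63 in CR20-CTRL (38) and from 31 to 80.2 in CR20-HFD (53). In both tissues the highest value was that of mouse 40 and the lowest FED-HFD value that of mouse 11, and the ranges of the 4 groups overlapped. Zbp1 showed the same end mice, with 18.6 to 201 CPM in the FED-HFD livers (median 70.5) and 16.1 to 67.5 CPM in the FED-HFD pituitaries (29.2). For Xaf1, Gbp2, Rtp4, Ifit3 and Zbp1 the relation did not rest on the most extreme mice alone. Without the 2 mice farthest from the median in liver, r was 0.888 for Xaf1, 0.851 for Gbp2, 0.822 for Rtp4, 0.847 for Ifit3 and 0.798 for Zbp1, and these 5 remained called. With each mouse left out in turn the same 5 were called in all 24 fits, whereas the number of members called was 5 to 10, and fell to 5 without FED-HFD mouse 11. Ifitm3 was called in 22 of these fits, Parp14 in 18, and Gbp3 and Irf7 in 14 each. These last members were not called without the 2 farthest mice. The 3 ranges of animal numbers were the only batch-like label, and with r centred on the group and the range, it was 0.951 for Xaf1, 0.934 for Gbp2, 0.917 for Rtp4, 0.900 for Ifit3 and 0.863 for Zbp1.

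**Figure D3:**
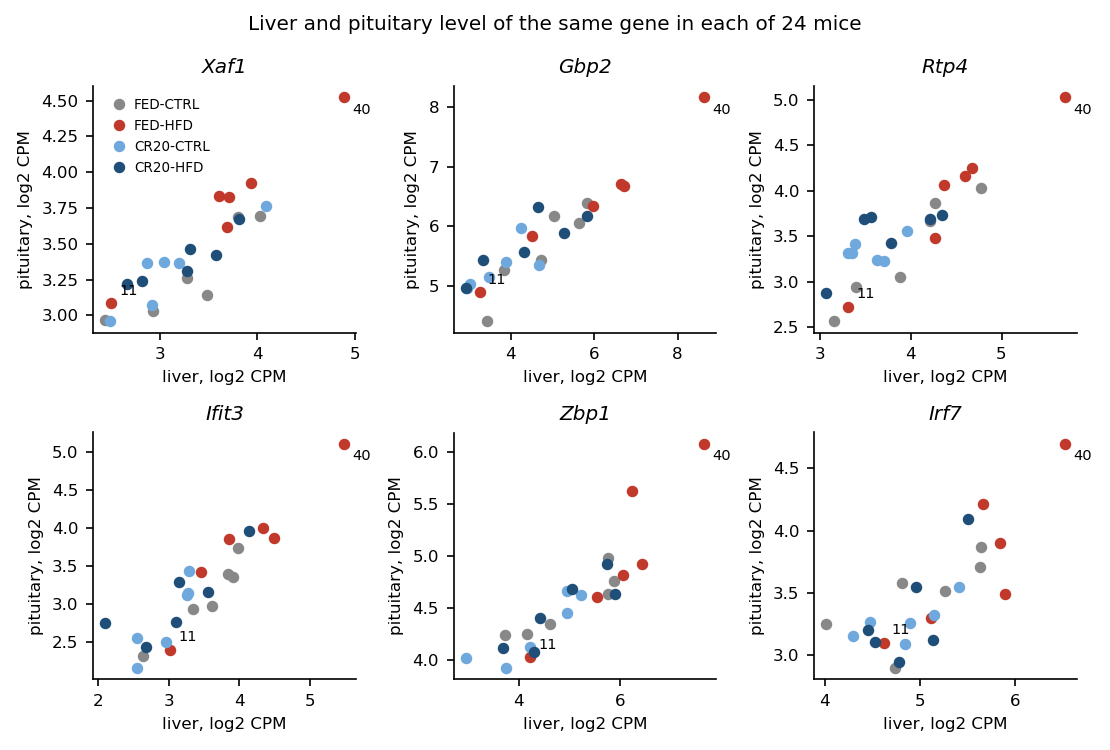
Log2 CPM in liver (horizontal axis) and pituitary (vertical axis) for 6 members, one dot per mouse coloured by group, with mice 40 and 11 of FED-HFD numbered. The values are not centred on the groups. Mouse 40 is the highest in both tissues in every panel, and the mice below it also line up.

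Fewer members were called in the pairs with eWAT, and the difference between pairs of tissues was not tested. Between eWAT and pituitary, 3 of 32 members were called, against 0.188% of 14372 genes: Irf9 (r = 0.841), Rtp4 (r = 0.829) and Gbp3 (r = 0.815), with permutation p-values of 3e-05, 2e-05 and 2e-05 and adjusted p-values of 0.0205, 0.016 and 0.016. Their rho was 0.744, 0.79 and 0.78, and r without the 2 farthest mice was 0.747, 0.777 and 0.691. The next member by p-value was Stat2 (r = 0.736, permutation p = 0.00052, adjusted p = 0.144). None of the 3 was called without the 2 farthest mice, without FED-HFD mouse 11, without CR20-HFD mouse 7 or without the 5 eWAT libraries with markers of another organ, and 1 was called without FED-HFD mouse 40 or 12. With each mouse left out, r was at least 0.762 for Irf9, 0.761 for Rtp4 and 0.71 for Gbp3. Without the 5 eWAT libraries r was 0.857, 0.845 and 0.835, the median r of the members was 0.66, and 0 of all 14372 genes were called with the fewer mice. Between eWAT and liver, 0 of 33 members were called, against 0.0781% of 12801 genes. The smallest p-value was that of Irf9 (r = 0.832, rho 0.67, permutation p = 6e-05, adjusted p = 0.0591), followed by Gbp3 (r = 0.791, adjusted p = 0.0853), Rtp4 (r = 0.712, adjusted p = 0.258) and Gbp7 (r = 0.699, adjusted p = 0.3), and the number called was 0 to 2 with each mouse left out. The median r of the members was 0.46 in eWAT and liver and 0.52 in eWAT and pituitary, against 0.01 and 0.03 over all genes. Without the 2 farthest mice these medians were 0.23 and 0.37, against 0.06 and 0.04 over all genes. The member medians were 0.32 and 0.45 without FED-HFD mouse 11, and 0.34 and 0.41 without FED-HFD mouse 40. Between liver and pituitary the member median, 0.54 with all mice, also fell. It was 0.48 without the 2 farthest mice, 0.46 without FED-HFD mouse 11 and 0.44 without FED-HFD mouse 40. Over the 3 pairs of tissues, r was above 0 for 30 members in every pair tested.

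**Figure D4:**
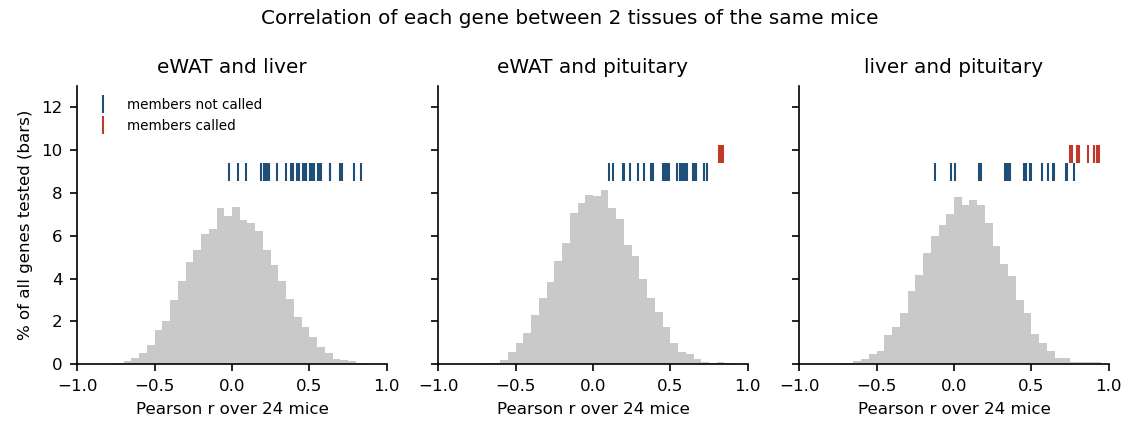
Distribution of Pearson r over 24 mice between eWAT and liver, eWAT and pituitary, and liver and pituitary (grey bars, percent of all genes tested), with a tick for each member, red where it was called. The members lie to the right of the bulk of all genes in each panel, and 0, 3 and 9 of them are called.

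Genes of the same pathway outside the member list were compared as listed groups. The shares of all genes called positive were 0.588% between liver and pituitary, 0.188% between eWAT and pituitary and 0.0781% between eWAT and liver. Of 19 genes on a list leaning to interferon gamma that were tested in liver and pituitary, 15 were called between these tissues. The median r was 0.85 over the genes tested. Those called included the immunity-related GTPases Irgm1 (r = 0.952), Igtp (r = 0.948) and Irgm2 (r = 0.948) and Ciita (r = 0.925), the activator of antigen presentation genes. Of this list, 9 of 19 tested were called between eWAT and pituitary, and 3 of 20 between eWAT and liver. Among the signalling and regulatory factors, Irf1 (r = 0.819) and Irf8 (r = 0.765) were called between liver and pituitary. Of 33 other interferon-stimulated genes tested, 1 was called, the GTPase gene Ifi47 (r = 0.89). The interferon receptors gave 0 of 5 and the nucleic acid sensing genes 0 of 13. None of the 21 interferon genes themselves passed the filter in any tissue, and their summed level was at most 0.428 CPM in eWAT, 1.68 in liver and 0.226 in pituitary.

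Macrophage markers were measured beside these relations. Between liver and pituitary their own r had a median of 0.32 over 11 markers, and 0 of 11 were called. Within the pituitary, the summed markers ran from 201 to 388 CPM over all mice, were highest in mouse 40, and went with the members at a median r of 0.55. Of the 32 members, 5 were called there, against 0.324% of 16657 genes, and these were Bst2 (r = 0.862), Ifitm3 (r = 0.772), Irf9 (r = 0.755), Ifit3 (r = 0.746) and Gbp3 (r = 0.69). In liver the median r of the members with the markers was 0.11 and in eWAT 0.004, with 0 of 33 called in each, against 0.82% of 13787 and 4.05% of 15964 genes. The part of macrophages in the shared variation was not tested.

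In the eWAT of FED-HFD vs FED-CTRL mice, Oasl1 and Oas1a of the oligoadenylate synthetase family rose, which is 2 of 33 members (6.06%) against 6.42% of the 15964 genes tested, so the members were not called more often than genes in general. None was lower, against 1.58% of all genes, and 8 had an unadjusted p-value under 0.05, against 25.7%. Oasl1, whose protein restrains the translation of Irf7, ran from 1.54 to 2.42 CPM in FED-CTRL (median 1.76), from 3.21 to 24.6 in FED-HFD (5.39), from 1.91 to 3.34 in CR20-CTRL (2.42) and from 1.68 to 4.31 in CR20-HFD (2.88). All 6 FED-HFD mice were above all 6 FED-CTRL mice, with mouse 23 far above the rest. Its log2FC was 2.18 (standard error 0.392, edgeR adjusted p = 0.00297). Without mouse 23, the mouse with the highest macrophage markers, the log2FC was 1.49 and Oasl1 remained called. The other FED-HFD mice also had higher summed macrophage markers (2413 to 4250 CPM) than the FED-CTRL mice (1665 to 2347 CPM). The part of macrophages in this call was not tested. Oas1a, which makes the activator of RNase L, ran from 5.3 to 8.02 CPM in FED-CTRL (median 6.93), from 5.95 to 36.4 in FED-HFD (15.4), from 5.37 to 11.1 in CR20-CTRL (6.5) and from 4.18 to 10.1 in CR20-HFD (8.29). The FED groups overlapped through mouse 11, the lowest of the FED-HFD mice. Its log2FC was 1.38 (standard error 0.320, edgeR adjusted p = 0.00817). Both were called under all 10 alternative settings and in all 24 fits with a mouse left out. Without FED-HFD mouse 11, 5 members were called higher, as Trim30a, Rsad2 and Mx1 joined them.

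Over all 33 members the median log2FC of this comparison was 0.35, with 32 above 0, against a median of -0.002 over all genes. This median was 0.06 without FED-HFD mouse 40 and 0.08 with voom and quality weights. Members go together within a library, so counts of members above or below 0 are not independent observations, here and in the comparisons below. The factors and the ISG15 pair did not pass the test. Irf7 ran from 26.8 to 40.1 CPM in FED-CTRL and from 19.4 to 84.5 in FED-HFD (log2FC 0.34, standard error 0.272, edgeR adjusted p = 0.456). Isg15 ran from 5.9 to 9.45 CPM and from 3.89 to 18.7 (log2FC 0.38, standard error 0.273, edgeR adjusted p = 0.398). For Irf9, Stat2, Usp18, Ifit3, Oas2, Bst2 and Gbp2 the log2FC lay between 0.17 and 0.51, for Zbp1 it was 0.88 (edgeR adjusted p = 0.241), for Mx1 0.68 (0.098) and for Ifih1 -0.07 (0.799). In each of these the FED-HFD range enclosed or overlapped that of FED-CTRL. Genes of the pathway outside the list moved as follows, where 6.42% of all genes were called higher and 1.58% lower. Of 14 nucleic acid sensing genes tested 7 rose, among them Ikbke, a kinase of the sensing pathway (log2FC 1.06, edgeR adjusted p = 0.00528). Of 21 genes on the list leaning to interferon gamma 2 rose. Among these was Ubd, a ubiquitin-like modifier gene with the smallest p-value of all genes in this comparison (log2FC 2.94, edgeR adjusted p = 0.000731). Of 16 signalling factors 3 rose, of 6 receptor genes 1 (Il10rb, log2FC 0.67), and of 35 other interferon-stimulated genes 4, among them Slfn2 (log2FC 1.29). Macrophage markers moved with this comparison, since 7 of 12 were called higher, their summed level was 1665 to 2347 CPM in FED-CTRL and 2413 to 11200 in FED-HFD, and none was at 0. Over the 24 mice, group-centred, Oasl1 had an r of 0.73 with the summed markers (rho 0.407, permutation p = 0.011 and 0.0841, adjusted p of r 0.0929) and Oas1a one of 0.706 (rho 0.438, permutation p = 0.0046 and 0.0663, adjusted p of r 0.0635). Without the 2 mice farthest from the median, r was 0.349 and 0.397 (permutation p = 0.14 and 0.103). Both were smaller without those mice and stayed positive. The part of macrophages in these calls was not tested.

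Maternal restriction was compared on the HFD as CR20-HFD vs FED-HFD, and 5 members were lower in the eWAT of CR20-HFD mice. These are 15.2% of the members, against 7.29% of all genes, and 0 members were higher, against 2.45%. An unadjusted p-value under 0.05 was found for 8 members, against 29.8% of all genes. Oasl1 had a log2FC of -1.56 (standard error 0.383, edgeR adjusted p = 0.00852) and Oas1a one of -1.13 (standard error 0.318, edgeR adjusted p = 0.0197), and their values by group are given above. For Oasl1, only the ends of the ranges overlapped, at 3.21 to 24.6 CPM in FED-HFD and 1.68 to 4.31 in CR20-HFD. Trim30a, a ubiquitin ligase gene that dampens innate signalling, ran from 16 to 44.2 CPM in FED-HFD (median 28.7) and from 12.5 to 23.3 in CR20-HFD (18.8), with a log2FC of -0.66 (standard error 0.187, edgeR adjusted p = 0.0202). Mx1 ran from 1.98 to 6.02 CPM in FED-HFD (median 5.07) and from 1.7 to 3.58 in CR20-HFD (2.48), with a log2FC of -0.81 (standard error 0.264, edgeR adjusted p = 0.0418). Parp14 ran from 76.4 to 195 CPM in FED-HFD (median 117) and from 52 to 108 in CR20-HFD (81.6), with a log2FC of -0.61 (standard error 0.201, edgeR adjusted p = 0.0436). In Oas1a, Trim30a, Mx1 and Parp14 the lowest FED-HFD mouse was mouse 11, and it lay within the CR20-HFD range. The 2 comparisons share the FED-HFD mice, and FED-HFD was the high group in both.

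**Figure D5:**
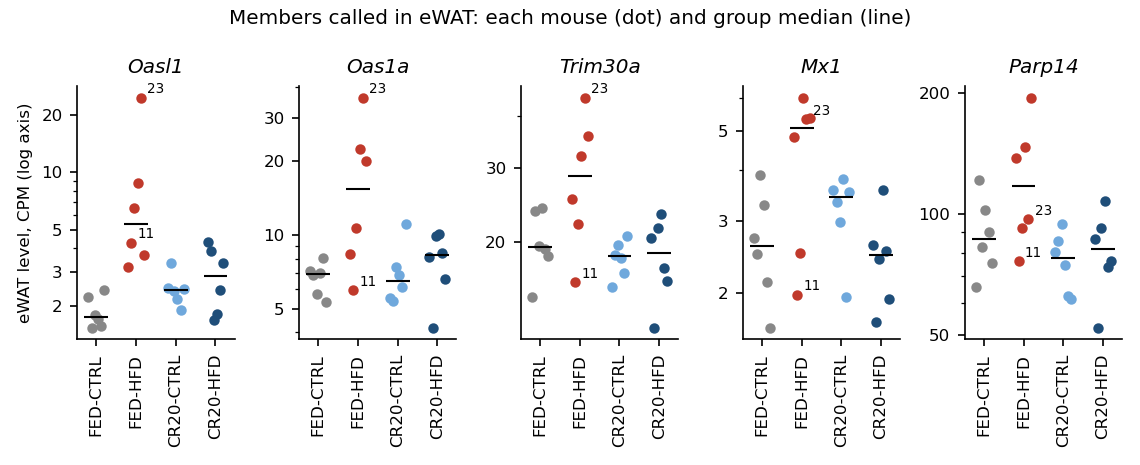
Level in eWAT (CPM, log axis) of the 5 members called lower in CR20-HFD vs FED-HFD, one dot per mouse and a line at the median of each group of 6, with FED-HFD mice 23 and 11 numbered. The FED-HFD dots reach above the other groups, mouse 23 is the highest for Oasl1, Oas1a and Trim30a, and mouse 11 is the lowest FED-HFD mouse for Oas1a, Trim30a, Mx1 and Parp14.

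These calls depended on the settings. The number of members lower was 1 (Oasl1) with voom and quality weights in limma, which the methods of the study name, 3 without the filter on low counts or without the 5 eWAT libraries with markers of another organ, 2 at a minimum log2FC of 1, and 0 in a fit of only the 2 groups compared. It was 2 without FED-HFD mouse 23 or CR20-HFD mouse 7, and 3 without any one of FED-HFD mice 10, 13 and 40 or CR20-HFD mice 6, 45 and 46. Oasl1 was called in 9 of the 10 alternatives and in all 24 fits with a mouse left out, with a log2FC of -0.87 without mouse 23, Oas1a in 8 and 23, Trim30a in 7 and 22, Mx1 in 5 and 15, and Parp14 in 5 and 17. The other named members did not pass, with log2FC between -0.56 for Zbp1 and 0.13 for Bst2, and the median over all 33 was -0.29, with 30 below 0. That median was -0.01 without FED-HFD mouse 40 and -0.13 with voom and quality weights. The lists beside them are set against 7.29% of all genes called lower and 2.45% called higher. In these lists, 9 of 14 nucleic acid sensing genes were lower, among them Tlr7 (log2FC -1.32, edgeR adjusted p = 0.00212), and 3 of 16 signalling factors, Irf5 (-1.64), Ptpn6 (-1.41) and Irf8 (-1.11). Of 21 genes on the list leaning to interferon gamma 2 were lower, among them Ciita (-1.11). Of 35 other interferon-stimulated genes 4 were lower, among them Ifi209 (-1.10), and 1 higher. Of the macrophage markers 7 of 12 were lower, with a summed level of 1431 to 2356 CPM in CR20-HFD, and their part in the calls was not tested.

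Whether the response to the HFD differed between CR20 and FED mice was tested as the interaction. In eWAT, 0 of 33 members were called, against 2.42% of all genes, and 3 members had an unadjusted p-value under 0.05, against 18.2%. Oasl1 came closest, with an interaction of -1.94 on the log2 scale (standard error 0.544, edgeR adjusted p = 0.0601), followed by Mx1 (-1.05, edgeR adjusted p = 0.136). DESeq2's Wald test called Oasl1 (-1.95, adjusted p = 0.0155). With mice left out in turn, Oasl1 was also called without FED-HFD mouse 10, 11 or 40 or CR20-CTRL mouse 48, and Oas1a and Mx1 were called without mouse 11. In CR20-HFD vs CR20-CTRL 0 members were called by edgeR or DESeq2, and 1 had an unadjusted p-value under 0.05, against 6.03% of all genes, which was Bst2 (log2FC 0.44, standard error 0.211, edgeR adjusted p = 0.828). The second was Usp18 (log2FC 0.48, standard error 0.259, edgeR adjusted p = 0.877). In CR20-CTRL vs FED-CTRL 0 members were called by either tool, 0 had an unadjusted p-value under 0.05, against 7.39% of all genes, and the smallest p-values were those of Ifih1 (log2FC -0.24, edgeR adjusted p = 0.835) and Gbp7 (-0.51, edgeR adjusted p = 0.909). By edgeR the share of all genes called was 0% in each of these 2 comparisons, while DESeq2 called 150 genes for CR20-CTRL against FED-CTRL and 1 gene for CR20-HFD against CR20-CTRL.

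In liver, 0 of 33 members were called in any comparison by edgeR or DESeq2, and the shares of all genes called are those of edgeR. In FED-HFD vs FED-CTRL the share of all genes called was 0.109%, the median log2FC of the members was 0.50, with 28 above 0, and 9 had an unadjusted p-value under 0.05, against 6.66% of all genes. The smallest p-values were those of Gbp3 (log2FC 1.58, standard error 0.518, edgeR adjusted p = 0.428) and Gbp2 (1.87, standard error 0.639, edgeR adjusted p = 0.469). Gbp3 ran from 15.1 to 70.4 CPM in FED-CTRL (median 39.6) and from 14.1 to 321 in FED-HFD (89.5), so that FED-HFD extended beyond FED-CTRL at both ends. Irf7 had a log2FC of 0.61 (edgeR adjusted p = 0.725), Zbp1 of 1.16 (0.624), Ifit3 of 0.73 (0.733), Usp18 of 0.87 (0.636) and Isg15 of 0.50 (1.0). Irf9 (-0.03) and Stat2 (0.09) stood near 0. In CR20-HFD vs FED-HFD the share of all genes called was 0%, and 13 members had an unadjusted p-value under 0.05, against 3.58% of all genes, led by Gbp2 (log2FC -2.16, standard error 0.646, edgeR adjusted p = 1.0) and Ifit3 (-1.10, standard error 0.348, edgeR adjusted p = 1.0). The median of the members was -0.60, with 31 below 0. Without FED-HFD mouse 40 the medians of these 2 comparisons were 0.23 and -0.33. Members go together within a library, and both comparisons share the FED-HFD mice. The counts of members under an unadjusted p-value of 0.05, or above or below 0, are thus not independent observations. In CR20-HFD vs CR20-CTRL (0.522% of all genes called) 1 member had an unadjusted p-value under 0.05, against 9.57% of all genes, and the smallest p-values were those of Bst2 (log2FC -0.43, edgeR adjusted p = 0.522) and Ifih1 (-0.33, 0.53). In CR20-CTRL vs FED-CTRL 1 member had one, against 2.17%, and in the interaction 0, against 1.76%, and the share of all genes called was 0% in both. In CR20-CTRL vs FED-CTRL the smallest p-values were those of Ifit1 (-0.92, edgeR adjusted p = 0.999) and Gbp3 (-1.03, 0.999), and in the interaction those of Bst2 (-0.55, 0.999) and Herc6 (-0.88, 0.999).

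In pituitary, 0 of 32 members were called in any comparison by edgeR or DESeq2, and 0% of all genes were by edgeR. In FED-HFD vs FED-CTRL, 32 of 32 members had a log2FC above 0, with a median of 0.46, and 19 had an unadjusted p-value under 0.05, against 9.64% of all genes. Gbp3 ran from 9.79 to 24.5 CPM in FED-CTRL (median 18.2) and from 17.7 to 72.8 in FED-HFD (29.9), with a log2FC of 0.98 (standard error 0.233, edgeR adjusted p = 0.155). Isg15 ran from 3.06 to 5.27 CPM in FED-CTRL (4.58) and from 4.6 to 11.1 in FED-HFD (6.54), with a log2FC of 0.67 (standard error 0.172, edgeR adjusted p = 0.184). In both genes the low end of FED-HFD was mouse 11 and reached into the FED-CTRL range, and without mouse 11 both were called. Bst2 had a log2FC of 0.58 (edgeR adjusted p = 0.261), Gbp2 of 1.03 (0.311), Ifit3 of 0.82 (0.357), Zbp1 of 0.61 (0.358), Irf9 of 0.46 (0.409), Stat2 of 0.34 (0.53), Irf7 of 0.39 (0.566), Ifih1 of 0.25 (0.512), Oas2 of 0.44 (0.798) and Usp18 of 0.16 (0.817). In CR20-HFD vs FED-HFD, 30 of 32 were below 0, with a median of -0.43 and 16 at an unadjusted p-value under 0.05, against 6.77% of all genes. The smallest p-values were those of Ifi35 (log2FC -0.38, standard error 0.101, edgeR adjusted p = 0.388) and Gbp7 (-0.91, standard error 0.253, edgeR adjusted p = 0.388). In the interaction they were those of Gbp3 (-0.94, edgeR adjusted p = 0.339) and Gbp7 (-0.99, 0.347), in CR20-CTRL vs FED-CTRL those of Ifit1 (0.60, 0.173) and Eif2ak2 (0.32, 0.202), and in CR20-HFD vs CR20-CTRL those of Oasl1 (0.65, 0.722) and Oas1a (0.46, 0.723). An unadjusted p-value under 0.05 was found for 8 members in the interaction (11% of all genes), 3 in CR20-CTRL vs FED-CTRL (17.3%) and 0 in CR20-HFD vs CR20-CTRL (7.28%). Members go together within a library and both comparisons share the FED-HFD mice, so that the counts above and below 0 are not independent observations. Without FED-HFD mouse 40 the medians of these 2 comparisons were 0.22 and -0.21. Macrophage markers in pituitary summed to 234 to 255 CPM in FED-CTRL and 230 to 388 in FED-HFD, and their part in these values was not tested.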

How the data were processed

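Per the labels, 72 libraries were made from eWAT, liver and pituitary of 24 mice. The authors checked reads with FastQC, trimmed them with Trimmomatic, aligned them with STAR to GRCm39, and deposited whole-number counts per Ensembl gene from Subread featureCounts without normalization. The strand setting of the counting is not given in the sources used here, and reads of close paralogs (Oas1a, Ifit3, Gbp2 and Trim30a have such copies) may be divided between copies. Names, positions and transcript starts were taken from GENCODE M39 (GRCm39), which named 54749 of 55416 genes.

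Counts of each tissue were fitted with edgeR 4.0.16 (R 4.3.3), using filterByExpr, TMM factors and the quasi-likelihood test, with 1 mean per group. The fit covered 15964 genes in eWAT, 13787 in liver and 16657 in pituitary, with Benjamini-Hochberg adjustment. CPM by group used the TMM factors of the tissue. Log2 CPM had a prior count of 2. Tissues were compared in one fit of the 72 libraries. The mouse pairs the tissues, since the labels give its tissues one number. Alternatives, whose effect is given at the end, used limma 3.58.1, DESeq2 1.42.0, other factors and filters, animal-number ranges, the mouse as block and each mouse left out. Leaving out mice in the correlations, leaving out eWAT libraries with markers of another organ and the macrophage correlation were added after seeing the data. Correlations used numba 0.67.0.

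The members and the gene lists were chosen with earlier results of these data known. All 33 members may be named. Full values are given, per tissue and comparison, for the 6 called members with the smallest p-values, or for 2 where none was called, and for Irf7, Irf9, Stat2, Isg15, Usp18, Ifit3, Oas2, Mx1, Ifih1, Bst2, Zbp1 and Gbp2, and of other lists for up to 4 genes per tissue. In counts simulated for CR20-HFD vs FED-HFD, 76 of 100 genes with a log2FC of 1 and 97 of 100 with 2 were recovered over 15964 genes in eWAT, 69 and 95 over 13787 in liver, and 86 and 99 over 16657 in pituitary. Recovery was not tested for the members themselves, so these numbers do not give the share of changed members that would be called. In the liver of CR20-HFD vs FED-HFD mice, Gbp2 had a log2FC of -2.16 and was not called. Libraries within a group differed beyond sampling noise, as the smallest chi-square per degree of freedom over 180 pairs was 9.16. The paper assigned the pups of each dam blindly to either diet, so mice of the 2 diets can share a dam. Which mice share a dam is not given, and the p-values treat the mice as independent and measure the spread between these mice. The result of 1 gene of the signalling list is not reported here.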

Additional observations from a re-analysis of the deposited data

Results flagged for a closer look

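Within groups of 6 mice, the gap between the end mouse and its neighbour was compared with the whole range of the group on the log2 CPM scale for 16 members, and 12 ends in 188 groups passed Dixon's 95% critical value for 6 samples. Chance flags about 1 in 20 groups.

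Of the 12, 3 were the liver of FED-HFD mouse 11, the lowest of its group, for Irf9 (share 0.765, 25.1 CPM against 50.1 in the next mouse), Oas1a (0.643, 2.11 against 4.79) and Oas2 (0.707, 1.66 against 4.37). In the liver of CR20-HFD mice, mouse 32 was lowest for Mx1 (0.674, 1.39 against 1.96 CPM) and Oas2 (0.656, 1.63 against 4.80), and mouse 7 for Irf9 (0.716, 35.1 against 47.6). In pituitary, Stat2 was highest in FED-HFD mouse 40 (0.656, 76.5 against 37.4 CPM) and lowest in CR20-CTRL mouse 47 (0.686, 23.2 against 28). In eWAT, Bst2 was highest in CR20-HFD mouse 31 (0.627, 117 against 86 CPM), Ifih1 was highest in CR20-CTRL mouse 33 (0.787, 29.5 against 23.5), Mx1 was lowest in CR20-CTRL mouse 48 (0.627, 1.96 against 2.98) and Usp18 was lowest in FED-CTRL mouse 41 (0.693, 3.53 against 4.08).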

How the results depend on the processing

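No called member changed direction under the settings run. For CR20-HFD vs FED-HFD in eWAT, the 5 members called became 3 without a filter on low counts or without the eWAT libraries with hepatocyte or epididymis markers (chosen after seeing the data), 2 at a minimum log2FC of 1, 1 with voom and quality weights in limma, and 0 in a fit of only the groups compared. The interaction in eWAT gave 1 instead of 0 with DESeq2, FED-HFD vs FED-CTRL in pituitary gave 1 instead of 0 without a filter (Gbp3, log2FC 0.98, adjusted p = 0.00711), and eWAT vs liver gave 14 instead of 22 at a minimum log2FC of 1. Members correlated between eWAT and liver were 1 instead of 0 when centred also on the animal-number range. Between eWAT and pituitary they were 1 with Spearman's rho and 0 without the 2 farthest mice or without the marked eWAT libraries, instead of 3, and between liver and pituitary 5 instead of 9 without the 2 farthest mice. With each mouse left out, the members called were 2 to 5 in FED-HFD vs FED-CTRL and 2 to 5 in CR20-HFD vs FED-HFD in eWAT, 0 to 3 in the eWAT interaction, 0 to 2 in FED-HFD vs FED-CTRL in pituitary, and 0 to 2, 0 to 4 and 5 to 10 in the correlations of eWAT with liver, eWAT with pituitary and liver with pituitary. With the mouse as a replicate block, 21 members were called in eWAT vs liver, 23 in eWAT vs pituitary and 28 in liver vs pituitary, against 22, 25 and 28 without the block. Between the groups within a tissue no paired analysis was possible, because they hold different mice and the litters are not given. The cause of these shifts was not tested.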
